A study of Mus musculus with 2 samples.

Results

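The forkhead family comprises the mouse transcription factor genes named Fox followed by a letter and a number. The family was taken as the protein-coding genes of the GENCODE vM21 annotation (mm10) with names from Foxa to Foxs, with 1 member left out. This gave 43 genes of 21938 protein-coding genes on chromosomes 1 to 19, X and Y. The membership rule used gene names only and no measured value. Chromatin accessibility at these genes was read from a single list of 116782 ATAC-seq peaks. ATAC-seq uses the Tn5 transposase to cut and tag DNA that is not covered by nucleosomes.

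The cells were EHMT2-dTAG mouse embryonic stem cells (mESCs) of a BL6/129 hybrid strain, grown in medium with FBS and LIF. Per the study's methods, they grew on feeder cells, which were mouse embryonic fibroblasts treated with mitomycin C. In the mESCs the endogenous Ehmt2 gene carries an in-frame degron tag (dTAG) with a mCherry reporter. EHMT2 is a histone H3K9 methyltransferase that the degrader dTAG-13 removes. Here 2 independent clones, with 50000 cells each, were treated with DMSO, the solvent control, for 24 h. The tagged protein was thus not degraded, and every value below describes cultures of mESCs that carry the tag. The authors merged the clones into 1 peak list. No value could be given per clone, no error between clones was available, and no test between groups was possible. All comparisons below are descriptions of this list.

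Forkhead proteins share a DNA-binding domain of the winged-helix type and commonly recognise sequences with the core TGTTTAC. FOXA proteins are known as pioneer factors that bind nucleosomal DNA. Most members act in particular lineages, such as FOXL2 in the ovary or FOXP3 in regulatory T cells. Others are broadly used: FOXO proteins are inhibited by AKT downstream of insulin signalling, FOXM1 drives genes of the G2 and M phases, and FOXK1 and FOXK2 are expressed in many tissues. In pluripotent cells and the epiblast, FOXD3 is known as a developmental regulator and FOXH1 as the DNA-binding partner of SMAD proteins in Nodal signalling.

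The labelled cell type was checked against its markers. For scale, 64.3% of all protein-coding starts had a peak within 500 bp. Of 10 stem cell markers, 9 had a peak at their start, with a fold enrichment of 15.9 at Zfp42, 5.22 at Sox2, 4.12 at Nanog and 2.83 at Pou5f1. Esrrb had none within 500 bp of its annotated start. Of 8 fibroblast markers, 5 had a peak (7.5 at Col1a2 and 6.42 at Col1a1), and Col3a1, Dcn and Postn had none. Of 6 primitive endoderm markers, Gata6 (4.25) and Sox17 (2.86) had a peak. The mESCs grew on feeder fibroblasts, and the ATAC-seq methods name no step that removed them. The share of feeder cells or differentiated cells in the samples was not tested. A peak at a marker's start does not show that the gene is transcribed. In these bulk samples, more cells with an open site and a more open site per cell cannot be told apart.

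The sequences below are shown because they cover both ends of the family: the 3 start peaks of highest fold enrichment (Foxn3, Foxi3, Foxo4), a gene with a known role in pluripotent cells (Foxd3), and 2 starts without a peak (Foxl1, which was CpG-rich, and Foxn1, which lay farthest from any peak). Each holds 150 bases of GRCm38 (mm10), read 5′ to 3′ along the gene. CpG dinucleotides are in capitals. Windows were centred on the peak summit, or on the start where there was no peak, and were moved to the nearest stretch without annotated untranslated sequence. The move was 23 bp for Foxo4, 97 bp for Foxl1 and 270 bp for Foxn1.

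Foxn3, chr12:99563677-99563826, minus strand, upstream of the start: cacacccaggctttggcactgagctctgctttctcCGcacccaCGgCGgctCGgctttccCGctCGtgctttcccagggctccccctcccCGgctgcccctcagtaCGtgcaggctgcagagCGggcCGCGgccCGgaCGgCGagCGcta
Foxi3, chr6:70956427-70956576, plus strand, across the start: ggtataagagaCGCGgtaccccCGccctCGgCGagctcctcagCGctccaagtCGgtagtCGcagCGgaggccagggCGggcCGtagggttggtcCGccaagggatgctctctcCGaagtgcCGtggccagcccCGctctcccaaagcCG
Foxo4, chrX:101254111-101254260, plus strand, upstream of the start: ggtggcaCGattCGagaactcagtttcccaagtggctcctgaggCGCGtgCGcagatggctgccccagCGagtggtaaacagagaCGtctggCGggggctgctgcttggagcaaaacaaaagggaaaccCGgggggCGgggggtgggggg
Foxd3, chr4:99656080-99656229, plus strand, upstream of the start: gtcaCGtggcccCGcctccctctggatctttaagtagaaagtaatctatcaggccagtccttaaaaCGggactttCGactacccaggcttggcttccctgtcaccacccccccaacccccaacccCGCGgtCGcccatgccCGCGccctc
Foxl1, chr8:121127962-121128111, plus strand, in the coding exon: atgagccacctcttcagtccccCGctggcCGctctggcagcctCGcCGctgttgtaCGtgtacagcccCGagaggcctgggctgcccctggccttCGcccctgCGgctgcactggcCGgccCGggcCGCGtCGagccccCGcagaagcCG
Foxn1, chr11:78386213-78386362, minus strand, in the first intron: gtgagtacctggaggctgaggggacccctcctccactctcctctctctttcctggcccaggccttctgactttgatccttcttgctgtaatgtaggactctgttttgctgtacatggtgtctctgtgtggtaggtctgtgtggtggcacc

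The windows of Foxn3, Foxi3 and Foxo4 held 15, 16 and 10 CpG dinucleotides in 150 bases, and that of Foxd3 held 9. Foxl1, without a peak at its start, held 15, and Foxn1 held 0.

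The first question was how many forkhead genes had accessible chromatin at their start. A start counted as accessible where a peak shared at least 1 base with the 500 bp on either side of the 5′ end of the gene. Of 43 forkhead starts, 36 had a peak (83.7%, exact Clopper-Pearson 95% interval 69.3 to 93.2%). Of all protein-coding starts, 64.3% did. The interval treats genes as independent draws, which neighbouring genes are not, and it covers counting error only. When the best peak also had to reach a −log10 q-value of 10, 19 forkhead starts qualified (44.2%), beside 47.1% of protein-coding starts. When the summit itself had to lie within 500 bp of the start, 23 qualified (53.5%), beside 57.4%. When the start base itself had to lie inside a peak, 34 qualified (79.1%), beside 59.2%. The forkhead share was therefore above that of all genes for any overlapping peak and for a peak over the start base. It was slightly below under the q-value and summit rules, for which no interval was calculated.

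CpG content was compared next, because most forkhead starts lay in CpG-rich sequence. A start was called CpG-rich where the 500 bp on either side had an observed to expected CpG ratio of at least 0.6 and a GC content of at least 50%. This held for 31 of 43 forkhead starts (72.1%) and 44.4% of protein-coding starts. Among CpG-rich starts, 30 of 31 forkhead genes had a peak (96.8%, interval 83.3 to 99.9%), beside 97.4% of CpG-rich protein-coding starts. Among CpG-poor starts, 6 of 12 forkhead genes had a peak (50%, interval 21.1 to 78.9%), beside 37.9% of CpG-poor protein-coding starts. In both classes the interval of the forkhead share held the value of all genes. With a −log10 q-value of at least 10, however, the best peak qualified at 54.8% of CpG-rich forkhead starts, beside 80.7% of CpG-rich protein-coding starts, and at 16.7% of CpG-poor forkhead starts, beside 20.2%.

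**Figure D1:**
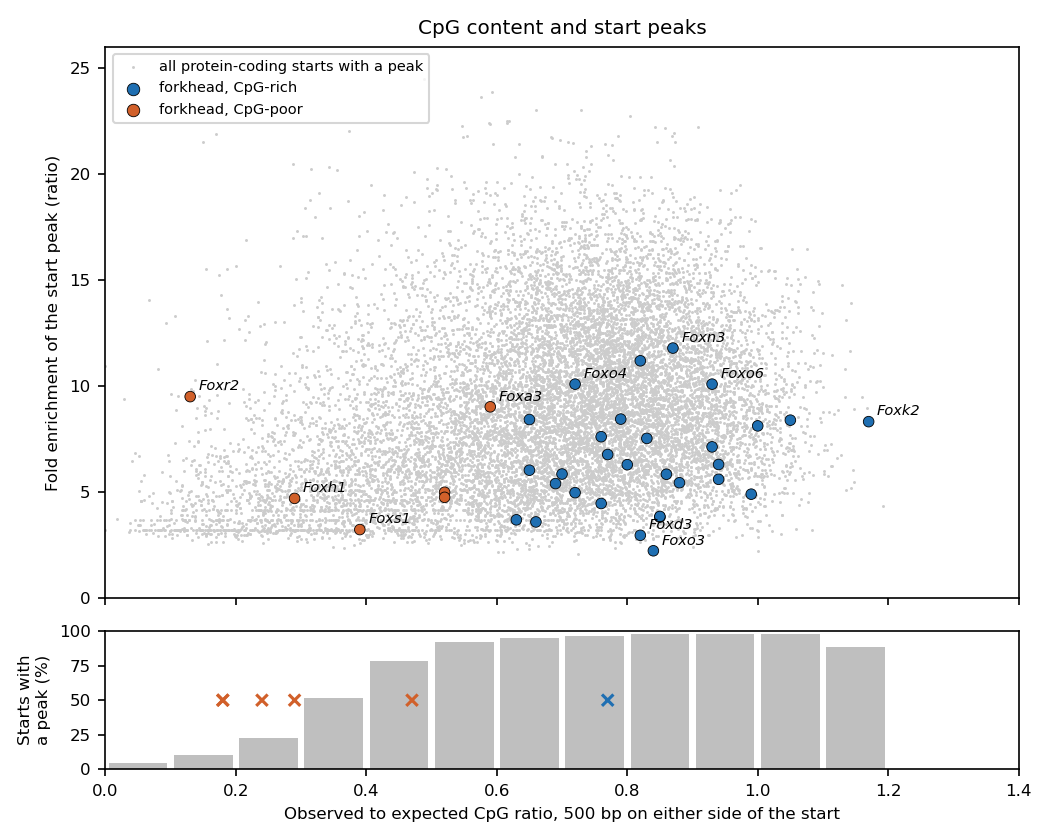
Upper panel: fold enrichment of the start peak (ratio) against the observed to expected CpG ratio around the start, for all protein-coding starts with a peak (grey) and forkhead starts (blue, CpG-rich; orange, CpG-poor). Lower panel: share of all protein-coding starts with a peak (%) in bins of the CpG ratio, with crosses at the CpG ratios of 6 forkhead starts without a peak, whose height has no meaning. Foxr2, with a CpG ratio of 0.13 and a fold enrichment of 9.51, stood apart from the other CpG-poor forkhead starts, and the CpG-rich forkhead starts filled the lower part of the grey cloud.

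The CpG-poor class included Foxa1, Foxa3, Foxd4, Foxh1, Foxi1, Foxi2, Foxj3, Foxn1, Foxq1, Foxr2 and Foxs1. Peaks were found at Foxa3, Foxd4, Foxh1, Foxi2, Foxr2 and Foxs1. Foxl1 was the CpG-rich start without a peak (CpG ratio 0.77, GC content 56.7%).

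The height of the start peaks was then compared. Fold enrichment, as MACS2 computes it, divides the number of fragments over the summit by the local background, after adding 1 to each. Over the 36 forkhead starts with a peak, the median was 5.95 (quartiles 4.75 and 8.35, range 2.24 to 11.8), and over all 14106 protein-coding starts with a peak it was 8.43 (quartiles 5.86 and 11.4). Of the 36 forkhead peaks, 8 lay above the protein-coding median and 17 below its lower quartile. The gap was present within CpG-rich starts, where the medians were 6.17 and 9.21, and within CpG-poor starts, where they were 4.88 and 6.51. The CpG-poor forkhead median rested on 6 peaks, which ranged from 3.24 to 9.51. Thus forkhead starts in CpG-rich sequence had a peak about as often as other such starts, but the peak was lower in the middle of the distribution.

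Both parts of the ratio differed. The number of fragments over the summit, calculated from the deposited fold enrichment and p-value, had a median of 24 at forkhead starts and 32 at all protein-coding starts. The local background had a median of 3.46 fragments at forkhead starts, and 24 of 36 lay above the protein-coding median of 2.9. With CpG-rich starts alone, the medians were 25.5 and 38 fragments over the summit and 3.55 and 3.26 fragments of background. With CpG-poor starts alone, they were 21 and 20 fragments over the summit and 2.47 and 2.14 of background, so the number over the summit was not lower there.

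**Figure D2:**
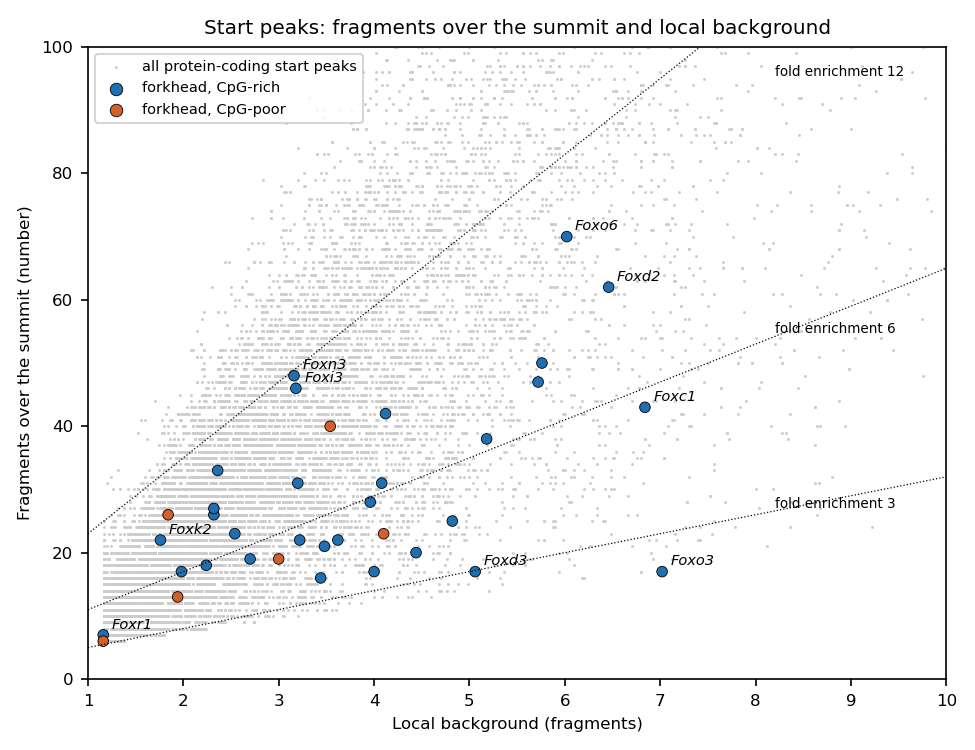
Fragments over the summit (number) against the local background (fragments) for start peaks of all protein-coding genes (grey) and of forkhead genes (blue, CpG-rich; orange, CpG-poor), with dotted lines of equal fold enrichment. Axes end at 10 fragments of background and 100 fragments over the summit, and some grey points lie beyond them. Foxo3 and Foxd3 lay on or below the line of fold enrichment 3, each with 17 fragments over a background of 7.02 and 5.06.

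Forkhead start peaks were also broad and often displaced from the start. Their median width was 1324 bp, beside 1045 bp at all protein-coding starts, and 25 of 36 were wider than that protein-coding median. A width above 1500 bp was found for 13 of 36 (36.1%), beside 15.5% of protein-coding start peaks. All 13 were at CpG-rich starts (43.3% of these, beside 18.2%). The summit lay within 500 bp of the start for 22 of 36 (61.1%), beside 88.9% of protein-coding start peaks. The broadest were at Foxb1 (2671 bp), Foxc1 (2634 bp), Foxl2 (2572 bp), Foxn2 (2350 bp) and Foxd1 (2213 bp).

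The family was also described by gene structure. In 16 members the whole coding sequence lies in 1 exon, and 13 of these had a start peak, with a median fold enrichment of 5 and a median width of 1637 bp. Among the 27 members with several coding exons, 23 had a start peak, with a median fold enrichment of 6.31 and a median width of 1260 bp. In the first group 7 of 13 peaks were wider than 1500 bp, and in the second 6 of 23. The fold enrichments of the groups overlapped, with ranges of 2.97 to 9.51 and 2.24 to 11.8.

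**Figure D3:**
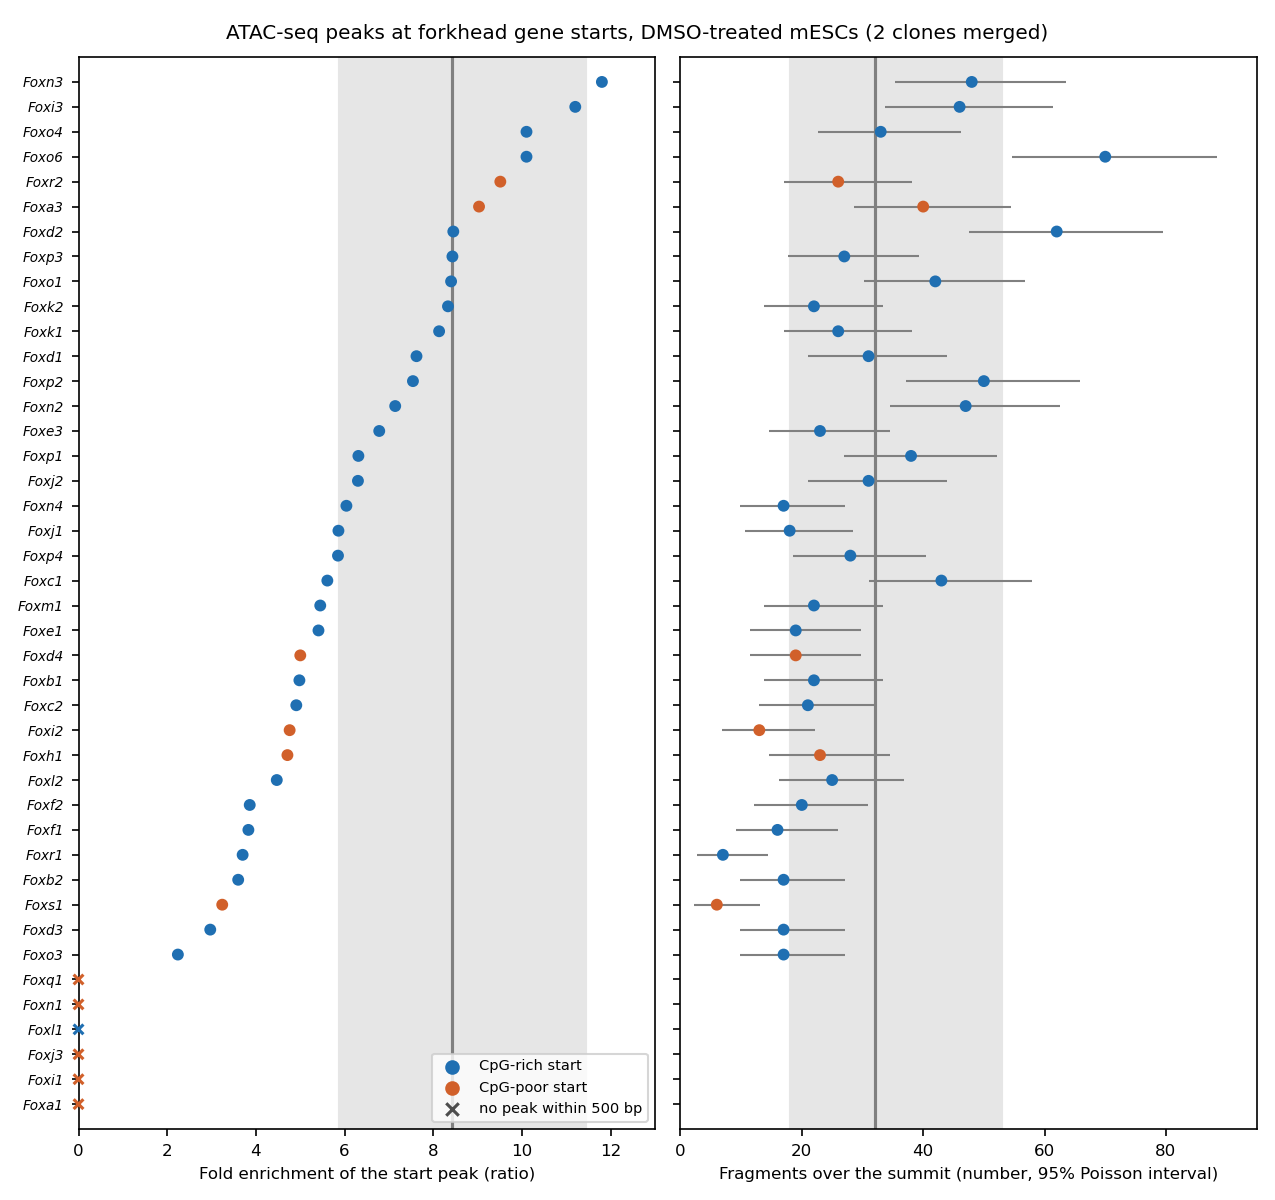
Start peaks of 42 of the 43 forkhead genes, ordered by fold enrichment. Left, fold enrichment (ratio), with crosses at 0 for the 6 genes drawn without a peak; right, fragments over the summit (number) with exact Poisson 95% intervals. Grey lines and bands mark the median and quartiles of all protein-coding start peaks. Foxn3 (11.8) led the order and Foxo3 (2.24) closed it, and most forkhead points lay left of the grey line.

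The account by subfamily begins with the genes used in many tissues. Of the FOXO genes, whose proteins carry insulin and stress signals to metabolism and survival genes, all 4 had a start peak. Foxo4 had a fold enrichment of 10.1 with 33 fragments (exact Poisson 95% interval 22.7 to 46.3), Foxo6 10.1 with 70 fragments (54.6 to 88.4), and Foxo1 8.4 with 42 (30.3 to 56.8). The Foxo1 peak also lay within 500 bp of the start of the antisense gene Gm20402. Foxo6 had more fragments over a background of 6.02 and Foxo4 fewer over 2.36, so the same ratio stood for unlike depths. These intervals, like all those on fragments, cover counting error only.

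Foxo3 was the lowest of the 36. Its start peak had a fold enrichment of 2.24, 17 fragments and a −log10 q-value of 1.47, over the highest background of any forkhead start peak (7.02). The summit lay 981 bp inside the gene. A higher peak lay just outside the window, with its summit 1157 bp upstream, a fold enrichment of 8.21, 64 fragments and a width of 969 bp. The low rank of Foxo3 thus describes the peak inside the window only.

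Of 5 regulators of FOXO proteins examined, 3 had a start peak: Akt1 (4.1), Akt2 (6.34) and Sgk1 (3.24, with 6 fragments). Pdpk1 and Sirt1 had none within 500 bp of the annotated start. Over all protein-coding starts the share was 64.3%.

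Both FOXK genes had a peak close to the protein-coding median. Foxk1 had 8.13 with 26 fragments, and its summit lay 20 bp inside the gene. Foxk2 had 8.33 with 22 fragments, and its summit lay 25 bp upstream. The Foxk2 start had the highest CpG ratio of the forkhead starts (1.17), and its peak was narrow (465 bp). The genes differed in the rest of their ranges, as described below.

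Foxm1, the regulator of mitotic genes, had a fold enrichment of 5.45 with 22 fragments. Its start lies 56 bp from that of Rhno1 on the other strand, and the same peak covered both starts, so it cannot be assigned to either. All 5 FOXM1 targets examined had a start peak, beside 64.3% of all protein-coding starts: Cenpf 21.4, Ccnb1 13.1, Plk1 11, Cdc25b 8.37 and Aurkb 4.39. The CpG ratio was 0.54 at Cdc25b and from 0.75 to 0.81 at the others, and 97.4% of CpG-rich protein-coding starts had a peak. Cenpf, Ccnb1 and Plk1 were above the protein-coding median of 8.43, and Cdc25b, Aurkb and Foxm1 itself were below it.

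Of the genes with roles in pluripotent cells, Foxd3 had a narrow and low start peak. Its fold enrichment was 2.97 with 17 fragments (9.9 to 27.2) over a background of 5.06, its width 308 bp was the smallest of the family, and 1.04% of protein-coding start peaks were lower. A further 3 peaks lay in its range, with fold enrichments of 3.47 and 2.85 upstream and 3.71 at 1669 bp inside the gene. None of the 4 exceeded 3.71. The local background at these peaks was between 3.32 and 5.32 fragments, above the protein-coding median of 2.9.

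Foxh1 had a fold enrichment of 4.71 with 23 fragments at a CpG-poor start (CpG ratio 0.29). The summit lay 236 bp inside the gene, in the first coding exon. A separate peak 1721 bp upstream, with a fold enrichment of 6.3 and 30 fragments, covered the start of Ppp1r16a on the other strand. Of 6 Nodal pathway genes, Smad2 and Smad4 had a fold enrichment of 12.2 each, Smad3 5.03, Lefty1 4.11 and Nodal 3.87, and Lefty2 had no peak. These 5 of 6 stand beside the same 64.3% of all protein-coding starts. Smad2 and Smad4 were above the protein-coding median, whereas Smad3, the ligand gene Nodal and the inhibitor gene Lefty1 were below it. The CpG ratio was 1.02 at Smad2 and Smad4, 0.83 at Smad3, 0.47 at Nodal and 0.27 at Lefty1. Nodal and Lefty1 were also below the median of CpG-poor protein-coding start peaks (6.51).

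In the FOXD subfamily, Foxd2 stood high, with a fold enrichment of 8.45 and 62 fragments over a background of 6.46. Its peak also covered the start of the noncoding gene Foxd2os. Foxd1, known in the kidney stroma, had 7.62 with 31 fragments. Foxd4, a CpG-poor start, had 5 with 19 fragments, and its peak began 309 bp inside the gene with the summit at 1472 bp.

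The FOXC and FOXF genes, which act in mesenchyme, all had a peak in the lower part of the distribution. Foxc1 reached 5.61 (43 fragments, background 6.84), Foxc2 4.91 with 21, Foxf1 3.83 with 16 and Foxf2 3.86 with 20. All 4 peaks were between 1407 and 2634 bp wide. The Foxf1 peak also covered the start of the noncoding gene Fendrr, and the Foxf2 peak that of 1700018A04Rik, whose start lies 24 bp from the Foxf2 start on the other strand. Foxc2, Foxf1 and Foxl1 lie on chromosome 8, where start peaks of protein-coding genes had a median of 46 fragments, and the part of this in their values was not tested.

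The FOXB and FOXE genes had peaks with summits away from the start. Foxb1 had 4.98 with the summit 2070 bp inside the gene, near the start of the antisense gene B230323A14Rik. Foxb2 was the member with 2 start peaks, with fold enrichments of 3.6 upstream and 3.23 over its coding exon. Foxe1, a regulator of thyroid development, had 5.41 with the summit 883 bp inside the gene. Foxe3, known in the lens, had 6.78 with the summit 840 bp inside the gene. In the last 2, and in Foxd4, the summit lay in the coding exon.

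FOXI genes ranged from no peak to the second highest value. Foxi3, known in ectodermal organs, had a fold enrichment of 11.2 with 46 fragments and its summit 29 bp upstream. Foxi2 had 4.76 with 13 fragments. Foxi1, a regulator of acid-secreting cells of the kidney and inner ear, had no start peak, and the nearest peak lay 4577 bp away with a fold enrichment of 3.24 and 6 fragments.

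Of the FOXJ genes, Foxj1, the regulator of motile cilia, had a fold enrichment of 5.86 with 18 fragments, and Foxj2 had 6.3 with 31. The Foxj2 peak also lay within 500 bp of the start of the antisense gene Gm26826. Foxj3 had no peak at its annotated gene start, which lay in sequence that was 61.5% repeat-masked. Its other protein-coding transcripts start from 2657 bp further in, and a peak of fold enrichment 8.12 with 31 fragments lay within 500 bp of these starts and of that of Frg2f1. The gene start of the annotation thus differed from the accessible start.

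The FOXN genes were spread widely. Foxn3, a repressor related to checkpoint control, was the highest of the family with 11.8 and 48 fragments, and 77.4% of protein-coding start peaks were lower. The Foxn3 peak also covered the start of the noncoding gene Gm26839, 214 bp away on the other strand. Foxn2 had 7.14 with 47 fragments and Foxn4, a regulator of retinal neurons, 6.04 with 17. Foxn1, the regulator of thymic epithelium that is mutated in the nude mouse, had no peak within 10655 bp of its start. The 2 peaks of its range lay 26170 and 27937 bp inside the gene, with fold enrichments of 5.48 and 6.29.

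All 4 FOXP genes had a start peak, and all were CpG-rich. Foxp2, known for its role in speech and vocal learning, had 7.54 with 50 fragments, Foxp1 6.31 with 38 and Foxp4 5.85 with 28. Foxp3, the regulator of regulatory T cells, had 8.43 with 27 fragments. The Foxp3 peak began 388 bp inside the annotated gene start, covered the start of Ppp1r3f on the other strand, and had its summit 835 bp inside. The starts of the other Foxp3 transcripts, from 5923 to 12711 bp further in, had no peak. The value at Foxp3 thus belonged to a region shared with Ppp1r3f, and Foxp3 and the other X-linked members lay on a chromosome where start peaks had a median of 27 fragments.

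Foxa3, an endoderm factor, had a fold enrichment of 9.03 with 40 fragments, but its summit lay 809 bp upstream in a peak that covered the start of Sympk, which lies 839 bp away on the other strand. Foxa1 had no peak within 500 bp of its gene start. Its protein-coding transcript starts 795 bp further in, where a peak of fold enrichment 3.1 with 26 fragments lay within reach of that start. Foxl2, the ovarian factor, had 4.47 with 25 fragments in a peak shared with Foxl2os, whose start is 11 bp away. Foxl1, of the gut mesenchyme, had no start peak but a peak of 9.2 with 38 fragments 2427 bp upstream.

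Foxd4 and Foxp3, whose peaks began 309 and 388 bp from the start, were the members just inside the window. Foxa1, whose nearest peak lay 1113 bp from its start, was outside it.

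Foxq1 also lacked a start peak, and a broad peak of 2425 bp with a fold enrichment of 6.04 and 38 fragments began 1716 bp inside the gene and spanned the start of A530084C06Rik. Foxr2 had 9.51 with 26 fragments at the start of lowest CpG ratio in the family (0.13). Foxr1 had 3.7 with 7 fragments (2.81 to 14.4), and Foxs1 3.24 with 6 fragments (2.2 to 13.1), the smallest number any peak of the list held. For these last 2 genes the depth supported little beyond the presence of a peak.

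When every protein-coding transcript start was used in place of the gene start, 39 of 43 members had a peak (90.7%), beside 68.6% of all protein-coding genes. The genes gained included Foxa1 and Foxj3, and Foxi1, Foxl1, Foxn1 and Foxq1 remained without one. In the opposite direction, some downstream starts had no peak. Transcripts of Foxm1 that start 2738 to 4320 bp inside the gene, of Foxo3 at 18389 bp and of Foxr2 at 8111 bp had none.

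The whole ranges of the genes, from 10 kb upstream to the gene end, were examined next. They held 194 distinct peaks over 2676286 bp. Every one of the 43 ranges held at least 1 peak, beside 84.5% of the ranges of all protein-coding genes. Of the 194 peaks, 37 were at forkhead gene starts, 7 were at gene starts of other protein-coding genes only, and 150 were away from any protein-coding gene start. Internal transcript starts were not counted as gene starts, in forkhead or other genes. The 150 thus include peaks over such starts, for example those of 10.4 and 8.97 in Foxn3 and of 7.33 in Foxp1.

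Away from starts the density was 5.6 peaks per 100 kb in forkhead ranges and 4.36 in the ranges of all protein-coding genes. For genes under 50 kb it was 5.47 and 4.59, and for longer genes 5.65 and 4.25. Without Foxp1, which alone held 41 of the 150 peaks, the forkhead value was 5.27. The median fold enrichment was 3.83 for the 150 peaks and 3.7 for all peaks away from starts, the median number of fragments was 10 and 8, and a −log10 q-value of 10 was reached by 13.3% and 16.1%. A repeat-masked share of 50% or more was found for 11 of the 150 (7.33%) and for 23.7% of all peaks away from starts. These medians and shares stand beside all 103845 peaks away from starts, including those outside gene ranges, whereas the density was compared within gene ranges.

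Of the 157 range peaks that were not at the start of their own gene, 104 had the summit in an intron, 27 upstream, 14 in a noncoding part of an exon and 12 in a coding exon.

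**Figure D4:**
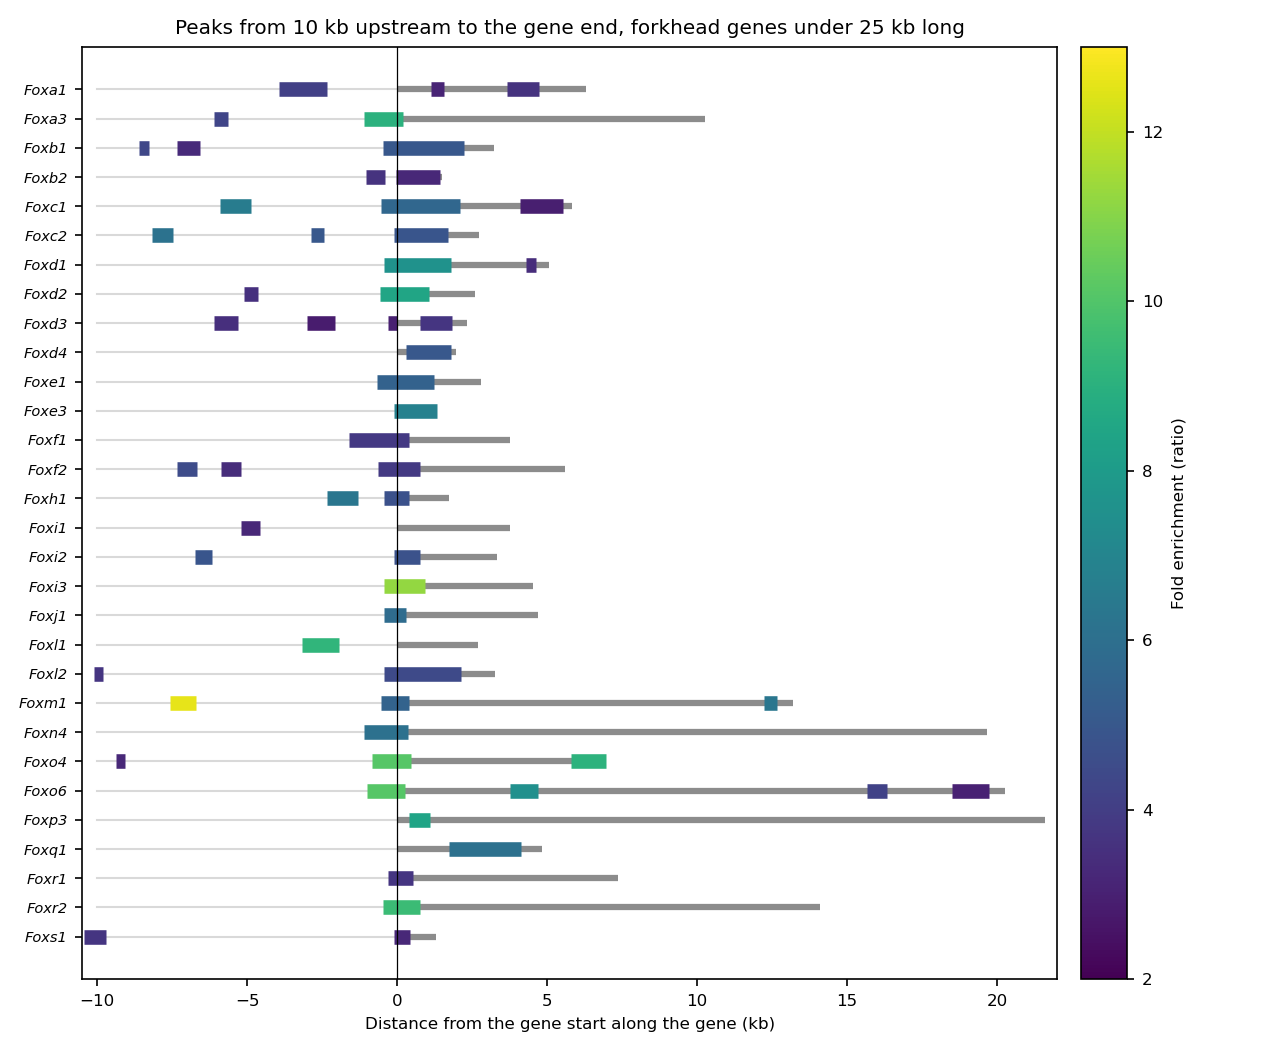
Peaks (coloured bars, to scale) from 10 kb upstream to the gene end for forkhead genes under 25 kb long, against distance from the gene start along the gene (kb). Grey lines mark the upstream range and thick grey lines the gene, and colour gives the fold enrichment (ratio). Foxd3 held 4 low peaks, the tallest peak of the plot was the Tulp3 start upstream of Foxm1, and the peaks of Foxl1 and Foxq1 lay off the start.

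The highest numbers of peaks were in long genes. Foxp1 (597384 bp) held 42 peaks, Foxn3 (373505 bp) 31, Foxp2 (540629 bp) 13, Foxk1 (60515 bp) 9 and Foxp4 (57513 bp) 8. Length did not set the number alone. Foxp1 had 0.69 peaks per 10 kb and Foxp2, of similar length, 0.24. Foxk1 had 9 peaks in a range of 70515 bp, whereas Foxk2 had its start peak only in 59907 bp. Per 10 kb, the highest values were those of the short genes Foxd3 (3.25), Foxc2 (2.36) and Foxb1 (2.27), whose ranges are mostly upstream sequence.

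In Foxp1 the peak at the annotated gene start (6.31) was not the highest, and no protein-coding transcript was annotated to begin there. The first such transcripts start 1559 and 1724 bp inside the gene, with a peak of 5.57 and 32 fragments. Intronic peaks reached 8.77 at 6772 bp and 8.89 at 281789 bp, with 29 and 23 fragments, fewer than the 38 of the peak at the gene start. Protein-coding transcripts that start between 493779 and 494730 bp inside the gene had a peak of 7.33 with 43 fragments and a CpG ratio of 0.75. Those that start at 256206 and 426516 bp had peaks of 5.16 and 3.62, and those at 87376, 274385, 359703 and 478262 bp had none. The highest value over an internal start thus exceeded that at the gene start.

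In Foxn3, transcript starts at 150977 bp and at 169785 to 170510 bp had peaks of 10.4 with 64 fragments and 8.97 with 53 fragments. The start at 113508 bp had none. A further intronic peak at 263522 bp had a fold enrichment of 9.93 with 29 fragments, and no protein-coding transcript was annotated to start there.

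Foxp2 differed in that the transcripts that start 283298 to 284214 bp inside the gene had no peak, and the start near 295602 bp had a peak of 3.24 with 6 fragments. Its highest peak, 10.7 with 34 fragments, lay in an intron at 65196 bp in sequence that was 100% repeat-masked. Reads in such sequence can match several locations and were placed at 1 of them, so this value is uncertain.

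**Figure D5:**
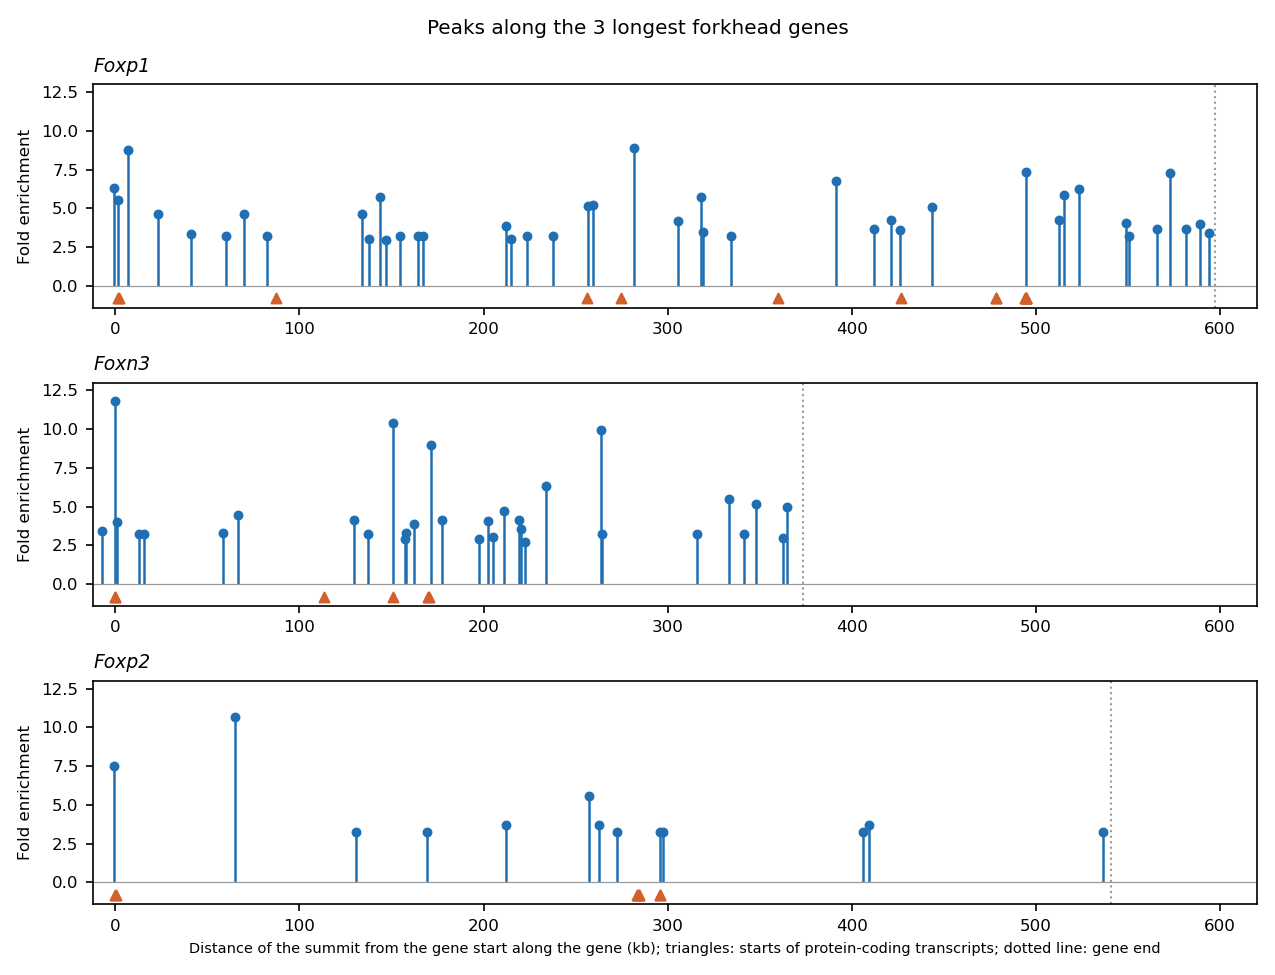
Fold enrichment (ratio) of each peak against the distance of its summit from the gene start (kb) in Foxp1, Foxn3 and Foxp2, the 3 longest forkhead genes. Triangles mark starts of protein-coding transcripts and dotted lines the gene ends. In Foxp1 and Foxn3 tall peaks stood over internal starts (7.33 in Foxp1, 10.4 and 8.97 in Foxn3), whereas the internal starts of Foxp2 had no peak or one of 3.24.

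In other genes, too, a peak inside the gene had a higher fold enrichment than the start peak. In Foxp4 a peak at 36666 bp had a fold enrichment of 10.1 with 54 fragments beside 5.85 at the start, in Foxn2 one at 35866 bp had 8.45 beside 7.14, in Foxo3 one at 79607 bp had 5.08 beside 2.24, and in Foxd3 one at 1669 bp had 3.71 beside 2.97. In Foxm1 one at 12471 bp, at the start of Tex52, had 6.3 beside 5.45. In fragments over the summit, the internal peak was also higher in Foxp4 (54 beside 28) and Foxd3 (22 beside 17). It was lower in Foxn2 (23 beside 47), Foxo3 (10 beside 17) and Foxm1 (16 beside 22). In these last genes the local background was lower at the internal peak. Internal peaks of Foxk1, Foxo6 and Foxo4 had a lower fold enrichment than their start peaks. Foxk1 had an intronic peak of 7.79 with 52 fragments over a background of 5.8 at 39241 bp. Its start peak had fewer fragments, 26 over a background of 2.32, so the order of these 2 peaks held for the ratio only. Foxo6 had 7.48 with 53 fragments at 3933 bp, and Foxo4 9.06 with 26 fragments at 6304 bp, near the gene end. The peak with the most fragments in any forkhead range lay 8814 bp upstream of Foxj2. It had a fold enrichment of 12.5 and 133 fragments (111 to 158), and no protein-coding gene start was within 500 bp of it. The noncoding gene Gm5112 starts there. In the range of Foxm1, the highest peak (12.6 with 74 fragments, 6987 bp upstream) was at the start of Tulp3.

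Some forkhead genes lie next to each other. Foxf1, Foxc2 and Foxl1 lie in this order on chromosome 8, with 28026 bp between the first 2 genes and 9044 bp between the last 2. The first gap held 6 peaks, the highest of 6.14 at the start of Mthfsd, and the second held 1 peak, of 9.2. Foxq1 and Foxf2 on chromosome 13 are separated by 64839 bp with 4 peaks, the highest of 4.52. Foxd2 and Foxe3 on chromosome 4 are separated by 16273 bp with 3 peaks, the highest being the Foxd2 start peak of 8.45. In 2 of the 4 neighbouring pairs, 1 member lacked a start peak (Foxl1 beside Foxc2 with 4.91, Foxq1 beside Foxf2 with 3.86). In the other 2, both members had one (Foxf1 with 3.83 and Foxc2 with 4.91, Foxd2 with 8.45 and Foxe3 with 6.78).

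Finally, peaks were searched for short sequences within 150 bp of the summit, on both strands. The forkhead core TGTTTAC was found in 6 of 194 range peaks (3.09%), beside 4.25% of all peaks. This order turned with other settings. With whole peaks searched, whose widths were not matched, the shares were 11.3% and 8.28%. Among peaks with a −log10 q-value of at least 10 they were 4.44% (of 45 forkhead range peaks) and 3.45%. The core was found at 2 of the 37 forkhead start peaks (5.41%), beside 1.88% of all start peaks, and these were the starts of Foxo1 and Foxo4. These 2 were also the only matches among the 45 peaks of the stricter setting. The stretches are shown because both genes encode forkhead proteins themselves, with the match in capitals on the strand of the gene, where it reads in the reverse complement, and 10 bases on either side.

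Foxo1, chr3:52268054-52268080, plus strand: gcactctgtaGTAAACAaaagtatggt
Foxo4, chrX:101254175-101254201, plus strand: ccagcgagtgGTAAACAgagacgtctg

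The Foxo4 match lay 21 bp before the summit and the Foxo1 match 98 bp before it. With 2 matches among 37 peaks, no difference from other start peaks could be read. The other 4 were in introns, 2 in Foxn3 (at 177188 and 364723 bp) and 2 in Foxp1 (at 318204 and 421167 bp).

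ATGCAAAT, the octamer recognised by POU factors such as POU5F1, was found in 8 of the 150 peaks away from starts (5.33%), beside 3.23% of all peaks away from starts. At forkhead start peaks it was found in 0 of 37, beside 1.29% of all start peaks, and over all range peaks in 4.12%, beside 3.02% of all peaks. With 8 matches, no difference from other peaks could be read. The 8 included the Foxn3 peak of 9.93 at 263522 bp, and the others had fold enrichments from 3.24 to 5.51. GGGCGG, a GC box, was found in 64.9% of forkhead start peaks and 66% of all start peaks. Among the 150 peaks away from starts it was found in 24.7%, beside 13.6% of all peaks away from starts. The latter include peaks outside gene ranges, the 150 include peaks over internal transcript starts, and CpG content was not matched. CCAAT was found in 27% of forkhead start peaks, beside 34.8% of all start peaks. TATAAA was found in 0 of 37, beside 4.05%. A match is a match of letters only, and whether any factor bound there was not measured.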

How the data were processed

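Per the study's methods and the labels, the authors pooled the technical replicates of each sample, removed adapters with BBMap, mapped the reads to mm10 using STAR 2.7.10 (reads with several matches written at 1 best location, ties at random), removed duplicates with Picard 2.26.0 and reads in ENCODE High Signal Regions (SAMtools 1.14, bedtools 2.30.0), shifted fragments for the Tn5 cut and called peaks on both merged clones with MACS2 2.2.6. The deposited list gives, for each peak, a score (not used), the fold enrichment as a ratio, and −log10 p-values and −log10 q-values of the summit. The smallest deposited −log10 q-value was 1.30. Depth per clone was not analysed here. The fragment number over the summit was calculated by finding the number, with its Poisson background, that yields the deposited fold enrichment and p-value together. It came out whole for 116778 of 116782 peaks (tolerance 0.001 in log10 p), with a smallest number of 6 and a median of 9.

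Positions were compared with GENCODE vM21 and the GRCm38 genome (mm10), counting from 1. Of several peaks in a window, the one of highest fold enrichment stood for the gene. Untranslated sequence was taken from GENCODE and RefSeq. Repeat-masked bases were those in lower case in the genome file. Python 3.11.15, NumPy 2.4.6, pandas 2.3.3 and SciPy 1.17.1 were used, and the calculation of fragment numbers and overlaps was tested on simulated data. The members and gene lists were chosen with earlier results of these data known. The members given in most detail were, by rule, those without a start peak, the 8 highest and 5 lowest, those with the most peaks, those with unlike transcript starts or a neighbouring member, and a set of genes of known roles. The peaks upstream of Foxj2 and the internal peaks of Foxo4 and Foxo6 were chosen after their values were seen. With 1 merged list, no test between samples was made. Alternatives were a stricter q-value, other windows and ranges, other CpG limits and whole peaks for the motif search. Some genes of the family and of the lists, and some sequence, are not reported here.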

Additional observations from a re-analysis of the deposited data

How the results depend on the processing

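Of 50 other settings tried on 13 results, 39 stayed within 1.5 times the reported value. With a −log10 q-value of at least 10, 19 forkhead starts had a peak, forkhead ranges held 45 peaks, the density away from starts was 0.747 per 100 kb in forkhead ranges and 0.675 in all protein-coding ranges, and a peak was found at 54.8% of CpG-rich and 16.7% of CpG-poor forkhead starts, and at 80.7% of CpG-rich and 20.2% of CpG-poor protein-coding starts. When the summit had to lie in the window, 23 forkhead starts counted (53.5%), beside 57.4% of protein-coding starts. This turned the order of the shares, as did the stricter q-value (44.2% and 47.1%). With the start base inside a peak the order was kept (79.1% and 59.2%). With a CpG ratio limit of 0.4, 24.8% of CpG-poor protein-coding starts had a peak. With whole peaks searched, TGTTTAC was found in 11.3% of forkhead range peaks and 8.28% of all peaks, and with the stricter q-value in 4.44% and 3.45%, both against the reported order. The stricter forkhead share rested on 45 peaks, with matches at the Foxo1 and Foxo4 starts only. The median fold enrichment of forkhead start peaks ranged from 5.85 to 8.33 over these settings and stayed below that of all protein-coding start peaks in each. The density without Foxp1 was added after seeing the data. No paired analysis was possible because the deposited list merges both clones and holds no value per replicate, and for the same reason no replicate could be left out. Peaks with few fragments (6 to 10) limit what can be said of low sites, and the absence of a peak at this depth does not show closed chromatin.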
